A study of Aspergillus niger with 8 samples.

Results

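Mycelium of the filamentous fungus Aspergillus niger that had spent 24 h without any carbon source was compared with mycelium from cultures grown on glucose. The members were the 4 libraries labelled 24 h starvation (cultures A and B) and 48 h glucose (cultures A and B), of 8 libraries in all, and they were taken by these labels and not by any measured value. All cultures were of strain N402, a laboratory strain with short conidiophores, grown from spores at 28 °C and 150 rpm in 100 ml of liquid medium in 250 ml shake flasks. The glucose cultures were sampled after 48 h on 1% (w/v) glucose. The starvation cultures began as such glucose cultures, whose mycelium was harvested at 48 h, rinsed free of glucose and kept for 24 h more in minimal medium to which no carbon source was added. The 2 groups therefore differed in the transfer, the rinse and the total age of the mycelium as well as in the carbon source, and these cannot be told apart. Starved mycelium at 6 h and mycelium exposed to wheat straw for 6 h (cultures A and B of each) entered the same fit. The 6 h starvation cultures are used below for a difference in time. Each group had 2 duplicate flasks, and the p-values rest on the spread within such pairs, pooled over the 4 conditions of the series.

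A filamentous fungus that runs out of sugar cannot move away, and it is known to recycle its own hyphae. Chitinases, glucanases and other hydrolases cut the walls of older, emptied compartments, vacuolar and secreted proteases release amino acids, and the products feed a small amount of new growth and the formation of conidiophores, the stalks that bear asexual spores. Loss of glucose also relieves carbon catabolite repression, through which the regulator CreA holds many genes for alternative carbon sources off. Biosynthesis and uptake systems that serve fast growth are usually turned down at the same time.

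The glucose libraries held 635522 and 758523 reads on gene models and the 24 h starvation libraries 320375 and 205778. These reads were 2.97 and 2.99% of all reads on glucose and 2.04 and 1.41% at 24 h, most of the rest being reads aligned to several places (58.4 to 71.7% of all reads in the 4 libraries). Unaligned reads made up 13.9 to 19.7%, alignments of low quality 5.49 to 12.7%, reads outside gene models 4.06 to 5.81% and reads on more than 1 gene 0.48 to 0.74%. The 10 most read genes took 12.7 to 15.6% of the reads on genes in the 4 libraries. Cultures A and B were correlated over all 15431 genes, on log2 of reads per 1000000 reads on genes plus 1, not divided by length. Pearson r was 0.953 on glucose and 0.907 at 24 h. Genes are not independent replicates, and the 4156 genes unread in the 4 libraries entered as equal values, which raises r. Levels are given throughout as reads per kilobase of gene model per 1000000 reads on genes, so the lower share of reads on genes at 24 h does not enter them. At this depth 1 read on a 1 kb gene was worth a level of 1.57 and 1.32 on glucose and 3.12 and 4.86 at 24 h in cultures A and B, and low levels are accordingly coarse.

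In mycelium starved for 24 h, 1100 genes were higher and 770 lower than on glucose out of 6357 tested. That was 17.3% called higher and 12.1% called lower, the background against which every list below is read. A gene was called when edgeR's quasi-likelihood test gave a Benjamini-Hochberg adjusted p below 0.05 over all genes tested and the group means differed at least 3-fold. A gene without any read in 1 group was called on the p alone. Changes were often large, since 488 of the called genes that were higher and 370 of those that were lower differed at least 10-fold on edgeR's scale. Levels of the 2 groups did not overlap in 1091 of the 1100 higher genes and in all 770 lower genes. The rule for a call already favours such genes, and the share over all tested genes was not counted. These counts are therefore no separate support for the calls, and neither are such statements on single genes below. The median log2 fold change over all tested genes was −0.02, and medians given for lists below are of the same quantity.

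The balance of rises and falls depended on what the reads were divided by. In the main fit 58.8% of calls were higher. There the test used edgeR's TMM normalisation factors, while the 3-fold limit was set on reads on genes without them. Printed folds and log2 fold changes therefore differ slightly in scale. With the limit on edgeR's fold change the higher share was 53.9%, and with no TMM it was 61.7%. With the ratio of deposited RPKM, which the authors divided by all reads of a library, 813 genes were higher and 1107 lower, and the higher share was 42.3%. With all reads as library size in the fit, 709 genes were higher and 930 lower, and the median over all genes moved to −0.67. No gene called in the main fit was called in the opposite direction under any of these. Fewer cells of a type and less RNA per cell cannot be told apart in such bulk samples, and the same holds for a fall in total mRNA, which the share of reads on genes cannot measure.

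**Figure D1:**
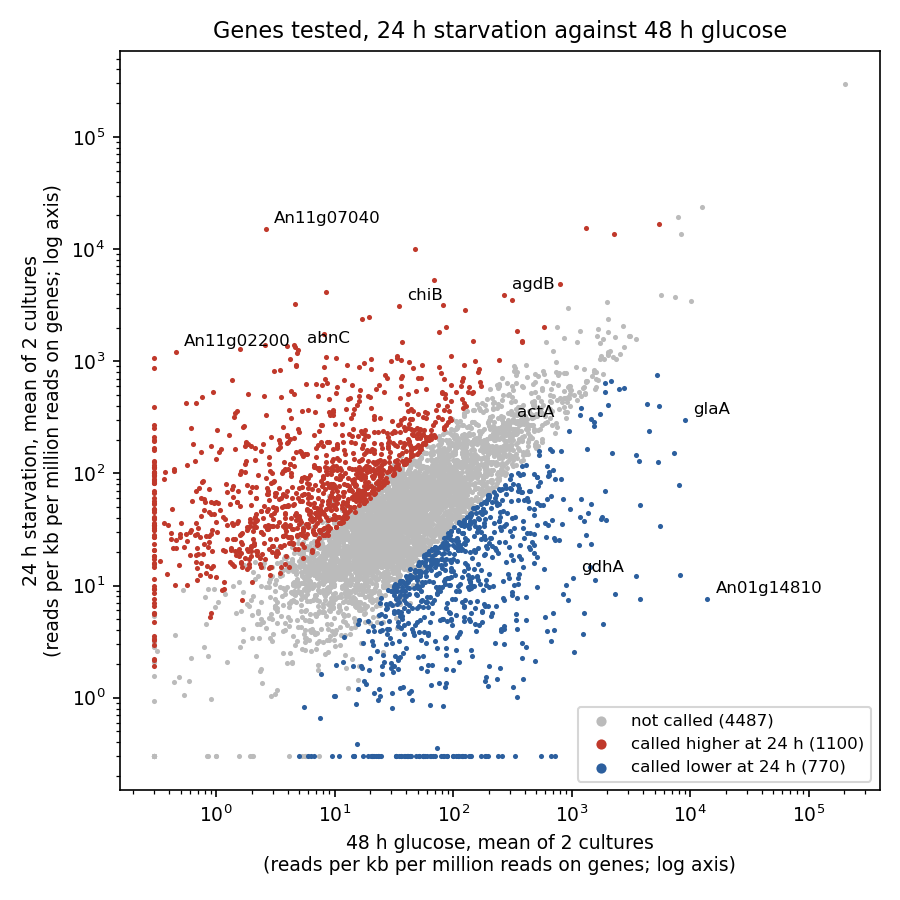
Mean level of each tested gene on 48 h glucose (x axis) and at 24 h of starvation (y axis), both in reads per kilobase per 1000000 reads on genes on log axes, each the mean of 2 cultures, with genes below 0.3 drawn at 0.3. Red points are the 1100 genes called higher, blue points the 770 called lower and grey points those not called, and a row of red points at the left edge and of blue points at the bottom shows genes with no read in 1 group.

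Among genes with a mean of at least 50 reads over the 4 libraries, An11g07040 had the largest fitted rise. It gave 2 and 0 reads in the glucose cultures A and B and 2923 and 1832 at 24 h, levels of 5.26 and 0 against 15257 and 14888. Both starved cultures placed it among the most abundant transcripts per length, while glucose gave almost nothing. It was 6299-fold higher by pooled reads (95% interval 1743 to 52029.6), and the interval covers counting error only, as do all such intervals and bounds below. The neighbouring genes An11g07030, An11g07050 and An11g07060 moved with it and are described with the runs of neighbours. No function of An11g07040 is given in the sources used here.

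An11g02200 rose from 0 and 1 reads to 612 and 322, 2475-fold higher by pooled reads (95% interval 443 to 97846). An03g06660 rose from a level of 0.728 and 2.44 to 1701 and 848, 804-fold (log2 fold change 9.29, SE 0.70, adjusted p = 3.64e-08). Groups of both genes were far apart, with every 24 h culture above every glucose culture. An04g02220 and An09g02060 had no read on glucose and 234 and 90 and 183 and 36 reads at 24 h, which made them at least 286-fold higher and at least 193-fold higher with the glucose group set to 3 reads. None of these genes has a stated function in the sources used here.

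The deepest falls went to nothing or almost nothing. The adjacent genes An01g14810 and An01g14820, described in the annotation through orthologues in other Aspergillus species alone, were among the most abundant transcripts on glucose. An01g14810 gave 4215 and 6147 reads on glucose and 1 and 1 at 24 h, 1955-fold lower by pooled reads (95% interval 541 to 16149). An01g14820 went from 4026 and 4701 reads to 3 and 2, a 657-fold fall in level (log2 fold change −9.54, SE 0.64, adjusted p = 1.98e-08). Both 24 h cultures showed these low levels. An12g05510, which gave 769 and 883 reads on glucose, had none in either 24 h culture and was at least 208-fold lower (adjusted p = 4.01e-08). An04g08300, with 222 and 566 reads on glucose and none at 24 h, was at least 99.1-fold lower. In all, 77 genes called lower had no read at 24 h and 75 called higher had none on glucose.

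Of 3 tested starch genes glaA and amyR fell and agdB rose, with the median log2 fold change at −2.46. The fourth, amyA, had no read in any of the 4 libraries. glaA encodes glucoamylase, the main secreted starch-degrading enzyme of A. niger, and its level was 8058 and 9945 in glucose cultures A and B and 202 and 399 at 24 h. The groups did not overlap, and glaA fell 29.9-fold (log2 fold change −5.12, SE 0.61, adjusted p = 2.59e-06). amyR, the gene for the transcriptional activator of starch enzymes, fell from 58.9 and 43.3 to 16.2 and 2.80, 5.38-fold (log2 fold change −2.46, SE 0.60, adjusted p = 0.0032). In the opposite direction the α-glucosidase gene agdB rose from 288 and 250.4 to 5749 and 2037, 14.5-fold (log2 fold change 3.64, SE 0.56, adjusted p = 4.44e-05). Its 2 starved cultures differed from each other by more than the glucose cultures did, although both were above glucose. aglU, chosen after its values were seen because of its high level, went from 2602 and 1812 to 109 and 193, 14.6-fold lower (log2 fold change −4.08, SE 0.51, adjusted p = 4.56e-06).

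The 3 tested genes of the organic acid list, citA, icdA and aox1, all fell, with the median log2 fold change at −3.01, whereas most glycolysis genes differed by less than 3-fold. citA, encoding citrate synthase, had levels of 278 and 432 on glucose and 70.04 and 44.7 at 24 h (6.18-fold lower, log2 fold change −2.82, SE 0.50, adjusted p = 2.00e-04). icdA, encoding NADP-dependent isocitrate dehydrogenase, was at 397 and 402 and 49.8 and 65.9 (6.90-fold lower, log2 fold change −3.01, SE 0.50, adjusted p = 1.19e-04). The alternative oxidase gene aox1, whose enzyme passes electrons to oxygen outside the cytochrome pathway, fell furthest, from 819.5 and 1492 to 41.4 and 4.60, 50.3-fold (log2 fold change −5.71, SE 0.62, adjusted p = 1.04e-06). Culture B at 24 h gave 1 read of aox1 and culture A 14, and both were far below glucose. goxC, the glucose oxidase gene, was too low to test, with 2 and 4 reads on glucose and 0 and 0 at 24 h.

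Of 6 tested glycolysis genes, 1 was lower and none higher, with the median log2 fold change at −0.80. The gene called, hxk for hexokinase, went from 46.4 and 76.9 to 23.03 and 16.3 (3.14-fold, log2 fold change −1.83, SE 0.55, adjusted p = 0.0142), and its call was lost without glucose culture B (adjusted p = 0.124) or without either 24 h culture. gpdA, for glyceraldehyde-3-phosphate dehydrogenase, had 546 and 1005 on glucose and 402 and 348 at 24 h and did not pass (adjusted p = 0.055). GlkA, pfkA, pkiA and tpiA, which encode glucokinase, phosphofructokinase, pyruvate kinase and triosephosphate isomerase, had log2 fold changes of −0.31, −0.74, −0.86 and −0.14 and were not called. Beyond the rule for named genes, the alcohol dehydrogenase gene adhA fell from 5250.2 and 5179 to 1276 and 236 (6.90-fold, log2 fold change −2.99, SE 0.64, adjusted p = 0.00109) and gsdA, for glucose-6-phosphate dehydrogenase, from 803 and 558 to 168 and 146 (4.34-fold, log2 fold change −2.32, SE 0.44, adjusted p = 4.28e-04), both chosen after their values were seen.

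None of 3 genes of the glyoxylate bypass and gluconeogenesis list was called at 24 h. The putative isocitrate lyase gene An01g09270 had levels of 283 and 489 on glucose, 2466 and 4300.0 at 6 h and 782 and 394 at 24 h. At 24 h the levels overlapped those on glucose (log2 fold change 0.39, adjusted p = 0.596). facB, the gene for the activator of acetate use, and pyc, for pyruvate carboxylase, had log2 fold changes of 0.54 and −0.27, with adjusted p of 0.305 and 0.614. Genes of respiration, found by words in the descriptions, divided into 1 higher and 2 lower of 9 tested, with a median of −0.84. The cytochrome c oxidase subunit gene An02g01720 fell from 352 and 364 to 81.3 and 67.5 (4.81-fold, log2 fold change −2.46, SE 0.42, adjusted p = 1.41e-04), and An01g10880, for an F1F0-ATPase subunit, fell 3.75-fold (adjusted p = 0.0011). Without glucose culture A the latter fell short of the 3-fold limit. The succinate dehydrogenase gene An01g13930 rose on few reads, 2 and 2 on glucose against 5 and 12 at 24 h, and its call was lost without 24 h culture B (adjusted p = 0.106).

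Both tested genes of inorganic nitrogen use fell, with the median log2 fold change at −6.10. niaD encodes nitrate reductase, the first enzyme of nitrate use, and stood at 723 and 438 on glucose and 13.8 and 14.4 at 24 h. It fell 41.2-fold (log2 fold change −5.56, SE 0.50, adjusted p = 1.55e-07), and the starved cultures lay close together and far below glucose. gdhA, for the NADP-dependent glutamate dehydrogenase that fixes ammonium, fell from 891 and 1146 to 11.5 and 11.95, 86.8-fold (log2 fold change −6.64, SE 0.51, adjusted p = 4.01e-08). Its glucose and 24 h levels likewise stood far apart. The nitrogen regulator gene areA was too low to test, with 0 and 0 reads on glucose and 0 and 0 at 24 h.

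All 3 genes that the study listed as annotated to γ-aminobutyric acid transport fell. Their median was −6.62, or −4.72 with the gene unread at 24 h set at its bound. An02g09540 went from 252 and 236 reads to 0 and 2, 92.1-fold lower by pooled reads (95% interval 25.4 to 763). An03g00430 went from 115 and 95 reads to none, at least 26.4-fold lower. An12g10000 fell 16.4-fold (log2 fold change −4.40, SE 0.60, adjusted p = 1.18e-05). An orthologue of urea transporters, An01g03790, went from 72 and 23 reads to 0 and 1, 35.9-fold lower by pooled reads (95% interval 6.28 to 1431). These annotation lists were drawn by the study from genes changed at 6 h against the same glucose cultures. They leave out annotated genes without such a change and were picked here after values were seen. Their counts are therefore no independent evidence of a direction, and the same holds for the annotation lists below.

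**Figure D2:**
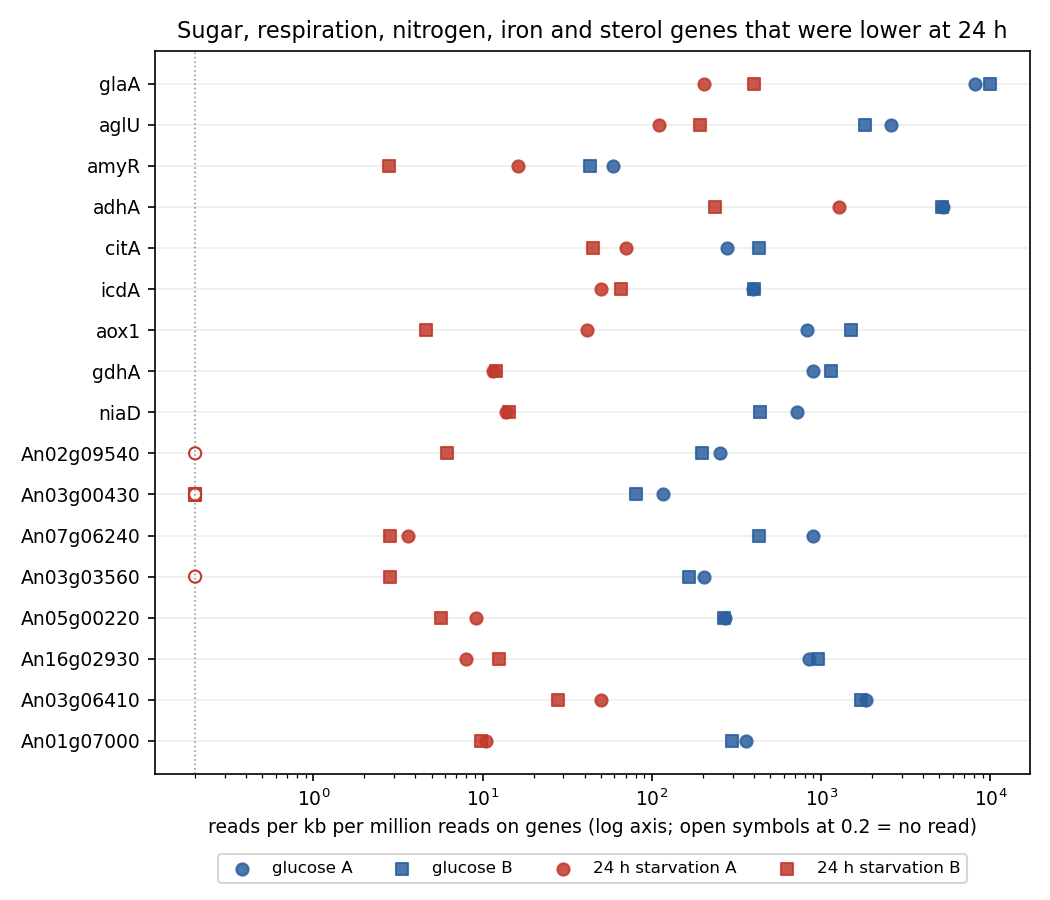
Level of 17 genes of sugar use, respiration, nitrogen, iron and sterol metabolism in each culture, in reads per kilobase per 1000000 reads on genes on a log axis. Blue symbols are the glucose cultures and red symbols the 24 h starvation cultures (circles A, squares B), open symbols at 0.2 stand for no read, and in each gene both red symbols lie to the left of both blue ones.

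Genes annotated to nitrogen utilization and to the breakdown of aromatic acids moved the other way. Both listed genes of nitrogen utilization rose, with a median of 3.67. An07g08810 went from 20.8 and 11.9 to 597 and 521, 34.2-fold (log2 fold change 4.89, SE 0.51, adjusted p = 6.37e-07), and An09g04910 rose 6.498-fold (log2 fold change 2.46, SE 0.42, adjusted p = 1.28e-04). The 3 genes annotated to the catabolism of quinate, an aromatic plant acid that some fungi use as a carbon source, all rose, and their median was 4.66. The study had already reported the quinate and L-phenylalanine terms as overrepresented among genes raised at 24 h of starvation. Neither direction is therefore independent evidence. Read counts of the quinate genes were low, however. An08g03850 had 1 and 0 reads on glucose and 16 and 6 at 24 h, 58.3-fold higher by pooled reads (95% interval 9.42 to 2406). An08g03870 had 1 and 2 on glucose and 16 and 19 at 24 h, 30.9-fold higher by pooled reads (95% interval 9.74 to 157). An08g03880, the best covered of the 3, rose 5.85-fold (log2 fold change 2.33, SE 0.52, adjusted p = 0.00156).

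Of 3 tested genes annotated to L-phenylalanine catabolism 2 rose, with the median log2 fold change at 7.19, or 5.73 with the gene unread on glucose at its bound. An11g02170 had no read on glucose and 33 and 27 at 24 h, at least 52.99-fold higher. An11g02180 had 1 and 0 reads on glucose and 47 and 37 at 24 h, 223-fold higher by pooled reads (95% interval 38.9 to 8894). An11g00430, the third, had 1 and 0 on glucose and 1 and 0 at 24 h and was not called (adjusted p = 0.728). Amino acid synthesis genes found by words gave 1 higher and 2 lower of 7 and a median of −0.94. The better supported fall was that of leu2A. leu2A, for the leucine biosynthetic β-isopropylmalate dehydrogenase, fell from 238 and 151 to 27.7 and 15.7, 8.98-fold (log2 fold change −3.30, SE 0.52, adjusted p = 6.12e-05). An01g06560, for argininosuccinate lyase, fell 3.32-fold (adjusted p = 0.0022), a call lost without glucose culture A or 24 h culture A. The gene that rose, An01g06150, encodes a 3-deoxy-7-phosphoheptulonate synthase, which starts the pathway to the aromatic amino acids, and went from 1 and 2 reads to 88 and 31, 105-fold higher by pooled reads (95% interval 35.1 to 517).

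Iron genes on the study's annotation lists were mostly lower. Of 6 such genes, annotated to iron homeostasis or transport, 4 fell and 1 rose, with the median log2 fold change at −4.21. An07g06240 had levels of 898 and 430.3 on glucose and 3.63 and 2.82 at 24 h, that is 2 and 1 reads in the starved cultures, and was 194-fold lower by pooled reads (95% interval 66.4 to 944). An03g03560, annotated to iron chelate transport, had 223 and 217 reads on glucose and 0 and 1 at 24 h, 166-fold lower by pooled reads (95% interval 29.7 to 6574). Neither gene came near its glucose level in either starved culture. An05g00220 fell 36.4-fold (log2 fold change −5.31, SE 0.50, adjusted p = 2.66e-07) and An07g10010 7.53-fold (log2 fold change −3.11, SE 0.48, adjusted p = 5.08e-05). The exception was An01g08010, an orthologue of vacuolar membrane proteins of iron homeostasis, which rose from 1 and 0 reads to 6 and 13, 50.3-fold higher by pooled reads (95% interval 8.003 to 2092). In a fit of the 4 libraries alone it was too low to be tested, and 4 of 5 remained lower. An06g01300 was not called (log2 fold change 1.09, adjusted p = 0.0673).

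Genes of the synthesis of ergosterol, the main sterol of fungal membranes, were lower at several steps. Of 4 tested genes with sterol in the description 2 fell and none rose, with a median of −1.81. An01g07000 encodes the C14 sterol reductase and fell from 359 and 298 to 10.5 and 9.80, 32.3-fold (log2 fold change −5.19, SE 0.52, adjusted p = 4.72e-07). An01g03350, the putative C-8 sterol isomerase gene, fell from 99.5 and 84.9 to 14.6 and 5.69, 9.08-fold (log2 fold change −3.25, SE 0.69, adjusted p = 0.00107). Of the other genes annotated to sterol metabolism, An03g06410 went from 1830.3 and 1726 to 50.2 and 27.9 (45.5-fold lower, log2 fold change −5.66, SE 0.49, adjusted p = 9.97e-08). An16g02930 went from 843 and 958 to 7.98 and 12.4 (88.3-fold lower, log2 fold change −6.70, SE 0.57, adjusted p = 9.97e-08). In the annotated list as a whole 4 of 7 were lower and 1 higher, with the median log2 fold change at −2.87, or −2.50 with An14g05780, unread at 24 h, at its bound. The 1 higher gene, An04g02190, lost its call without glucose culture A (adjusted p = 0.0971) or without 24 h culture A (0.159).

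Among protease genes found by words, in the part of the genome with descriptions held, more were lower than higher. Of 18 tested genes with protease or peptidase in the description 5 fell and 2 rose, with the median log2 fold change at −0.99. proctase-A, encoding an extracellular acid protease of the A4 family, had levels of 246 and 298 on glucose and 9.20 and 39.4 at 24 h, and fell 11.2-fold (log2 fold change −3.78, SE 0.87, adjusted p = 0.00204). The sedolisin-family secreted protease gene An01g01750 fell from 379.8 and 418 to 14.5 and 38.4, 15.1-fold (log2 fold change −4.19, SE 0.54, adjusted p = 6.54e-06). In both genes the 24 h levels lay far below those on glucose, with culture B above A. An01g11340, predicted to be an aminopeptidase, fell 16.6-fold (log2 fold change −4.38, SE 0.53, adjusted p = 3.38e-06), and the predicted serine endopeptidase gene An02g02850 went from 120 and 193 reads to 1 and 1, 59.1-fold lower by pooled reads (95% interval 16.2 to 489.9).

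Some proteases did rise. An02g00090 encodes a putative prolidase, which cleaves dipeptides ending in proline, and went from 8.38 and 11.04 to 306 and 429, 37.9-fold (log2 fold change 4.99, SE 0.55, adjusted p = 1.26e-06). pepA, for the major secreted aspartic protease aspergillopepsin A, rose from 7.76 and 13.01 to 61.6 and 154, 10.4-fold (log2 fold change 3.09, SE 0.55, adjusted p = 1.98e-04). Its starved cultures differed, but both exceeded glucose. The second protease found by words to be higher, An02g01000, rested on 1 library, with 0 and 1 reads on glucose and 0 and 9 at 24 h, and without 24 h culture B its log2 fold change was −2.07. Its call was lost without either glucose culture too. Among 9 tested protease genes chosen by symbol, pepA was the single gene higher and proctase-A the single gene lower, with a median of −0.72. The vacuolar protease gene pepE stood at 1710.2 and 1419 on glucose and 610.2 and 532 at 24 h, a 2.74-fold difference that passed the test (adjusted p = 0.00248) but not the 3-fold limit. The protease regulator gene PrtT was at 99.4 and 138 on glucose and 140.5 and 158 at 24 h (adjusted p = 0.844).

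Chitin genes rose without exception among those tested, 6 of 6 higher, and their median was 5.01, or 4.12 with the gene unread on glucose at its bound. This list and the others by wall polymer come from tables the study drew up from genes that changed in these libraries or on straw, so their direction is not independent evidence. chiB, encoding a GH18 chitinase that releases chitobiose, had levels of 32.7 and 36.5 in the glucose cultures and 2634 and 3599 at 24 h. It rose 90.01-fold (log2 fold change 6.27, SE 0.48, adjusted p = 4.01e-08), to a mean of 3116 ± 683 (SD, n = 2).

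cfcD, a putative group A chitinase gene, rose from 9.11 and 9.16 to 408 and 259, 36.5-fold (log2 fold change 4.94, SE 0.49, adjusted p = 4.31e-07). Not all members degrade chitin. chsG encodes a chitin synthase and rose from 2.94 and 1.23 to 27.7 and 20.4 (log2 fold change 3.30, SE 0.76, adjusted p = 0.00203). An01g02730, for a putative chitin-binding protein, had no read on glucose and 5 and 0 at 24 h, and its call was lost without 24 h culture A or without either glucose culture. Without 24 h culture A 4 of the 6 were called. In chiB and cfcD both starved cultures lay above both glucose cultures.

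Glucan hydrolases rose with the chitinases. Of 13 tested genes of β-1,3-glucan turnover 9 were higher and 1 lower, and the median was 2.67. An01g04560, a GH16 β-glucanase gene, went from 6.80 and 2.85 to 1031 and 1328, 245-fold (log2 fold change 7.69, SE 0.68, adjusted p = 1.31e-07). exgA, a putative exo-β-1,3-glucanase gene, went from 6.34 and 10.6 to 1674 and 489, 128-fold (log2 fold change 6.74, SE 0.69, adjusted p = 5.71e-07), with culture A well above B. engA, for a GH81 endo-β-1,3-glucanase, went from 9.55 and 15.997 to 1007 and 832, 72.01-fold (log2 fold change 5.93, SE 0.51, adjusted p = 1.08e-07). The putative β-1,3-glucanotransferases, which rejoin rather than only cut glucan chains, went in both directions. bgtD rose on few reads (0 and 1 on glucose against 10 and 7 at 24 h), a call lost without glucose culture A (adjusted p = 0.0709), and bgtE fell from 62.8 and 49.9 to 21.04 and 15.1 (3.12-fold, log2 fold change −1.81, SE 0.49, adjusted p = 0.00678), a call that was lost without glucose culture A or without 24 h culture B (adjusted p = 0.0617).

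Genes acting on α-1,3-glucan were higher in 3 of 3, with a median of 4.75, and this held when any 1 library was left out. The endo-α-1,3-glucanase gene angB rose from 0.983 and 4.12 to 367 and 619.6, 193-fold (log2 fold change 7.23, SE 0.59, adjusted p = 6.02e-08). agnE, putatively of the same activity, went from 3 and 0 reads to 22 and 17, 34.4-fold higher by pooled reads (95% interval 10.9 to 174). agsD encodes the opposite activity, a putative α-1,3-glucan synthase, and rose from 4.86 and 3.68 to 114 and 89.4, 23.8-fold (log2 fold change 4.36, SE 0.53, adjusted p = 3.23e-06).

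Mannan genes rose in 9 of 9 tested members of 11, with the median log2 fold change at 4.31, the mannan being the outer chains of wall glycoproteins. The putative α-1,6-mannanase gene An07g07700 was at 46.5 and 38.3 on glucose and 1045 and 911 at 24 h, and rose 23.1-fold (log2 fold change 4.31, SE 0.43, adjusted p = 4.04e-07). An14g04240, a putative GH92 α-mannosidase gene, went from 2.02 and 2.25 to 151 and 187, 79.1-fold (log2 fold change 6.02, SE 0.59, adjusted p = 3.58e-07). An16g02910, of the same family, rose 35.1-fold (log2 fold change 4.90, SE 0.47, adjusted p = 3.21e-07) and An08g03060 rose 66.4-fold (log2 fold change 5.73, SE 0.65, adjusted p = 1.60e-06). In these 4 genes both starved cultures lay well above both glucose cultures. dfgB, too low to test, had 6 and 5 reads on glucose and 9 and 4 at 24 h, and An04g09650 had none on glucose and 7 and 2 at 24 h. With a library left out, 6 to 8 members were called higher, the fewest without glucose culture A or without 24 h culture B.

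**Figure D3:**
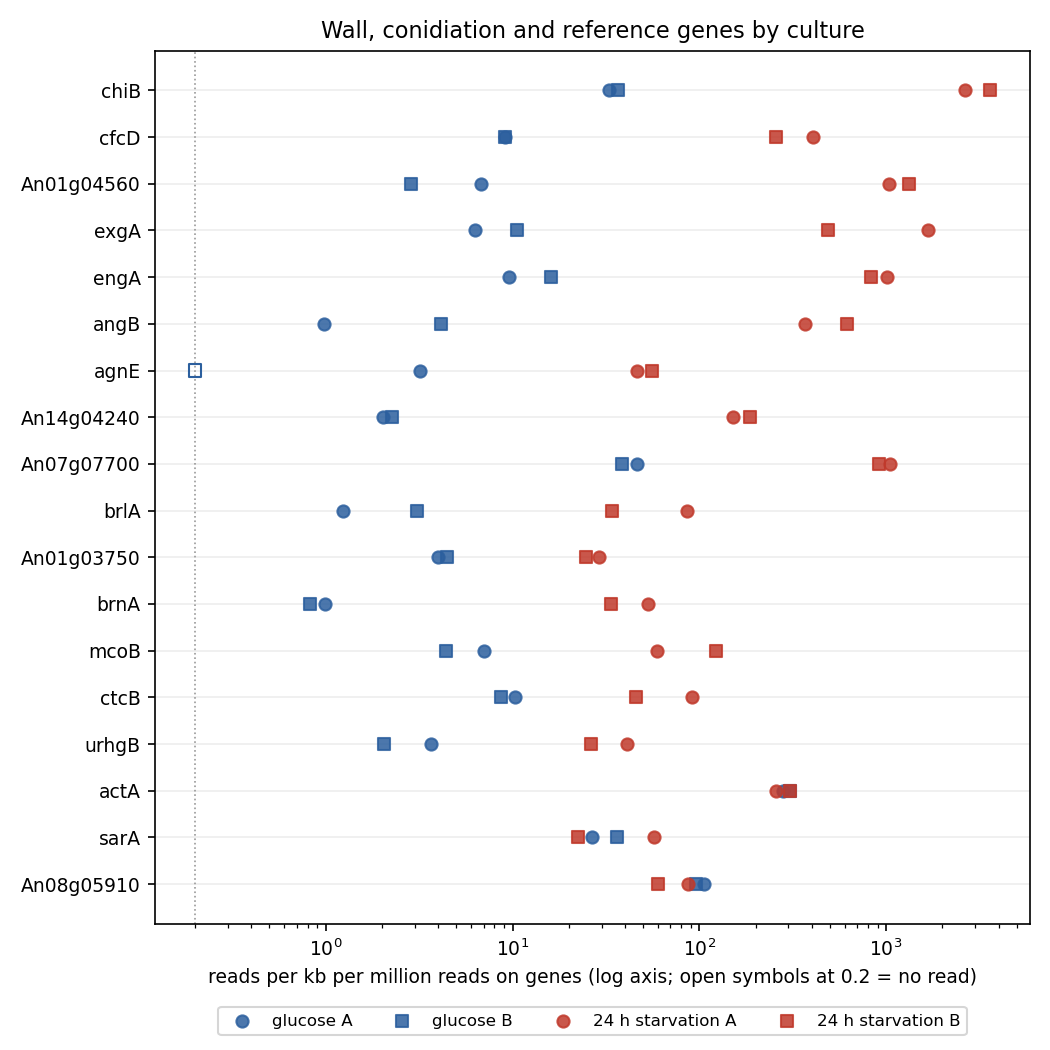
Level of wall-degrading, conidiation and reference genes in each culture, in reads per kilobase per 1000000 reads on genes on a log axis, with blue for glucose, red for 24 h starvation, circles for culture A, squares for B and open symbols at 0.2 for no read. The red symbols of the wall and conidiation genes lie to the right of the blue ones, while those of the reference genes actA, sarA and An08g05910 lie at or near them.

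Genes aimed at plant polysaccharides were more mixed, with no plant material in the flasks. The pectin, cellulose, xylan and inulin lists also come from the study's tables of genes that changed in these libraries or on straw. Their direction is therefore not independent evidence. Pectin is a galacturonic acid polymer with side chains of arabinan and galactan. For pectin and its side chains 11 of 22 tested genes were higher and 1 lower, with a median of 1.67 (1.62 with genes unread on glucose at their bound), but 5 to 9 were higher when a library was left out (5 without glucose culture B). abnC, a putative endo-arabinanase gene, had the lowest adjusted p of these named members, at 5.37 and 4.50 on glucose and 1279.9 and 1259 at 24 h, 258-fold higher (log2 fold change 7.74, SE 0.57, adjusted p = 3.62e-08). An15g03550, a putative arabinofuranosidase gene, went from 0 and 1 reads to 221 and 27, 657-fold higher by pooled reads (95% interval 117 to 26056). abnA, for another endo-arabinanase, went from 0 and 1 to 29 and 48, 204-fold higher by pooled reads (95% interval 35.5 to 8161). The arabinofuranosidase gene abfA was lower on 4 and 22 reads on glucose against 1 and 0 at 24 h, a call lost without glucose culture B (adjusted p = 0.339) or either 24 h culture.

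Of 15 cellulose genes 5 were higher and none lower (3 higher without glucose culture A or without either 24 h culture), with a median of 0.51. bglA, for a β-glucosidase that splits cellobiose, rose from 27.4 and 28.1 to 901 and 525, 25.7-fold (log2 fold change 4.47, SE 0.53, adjusted p = 2.82e-06). Of the others, An07g07630 gave 9 and 1 reads at 24 h and none on glucose, An11g06080 went from 2 and 4 to 11 and 10 reads, and An14g01770 from 0 and 5 to 6 and 7. An11g00200, chosen after its values were seen, went from 25 and 46 to 59 and 76 reads. None of the cellobiohydrolase genes cbhA and cbhB or the endoglucanase genes eglA and eglB was called, with log2 fold changes of −1.22, 0.51, −1.39 and −1.63. Xylan and xyloglucan genes gave 3 higher and 1 lower of 17 and a median of 0.08, although xlnR, the gene for their transcriptional activator, rose from 6.59 and 12.5 to 64.1 and 85.1, 7.80-fold (log2 fold change 2.71, SE 0.44, adjusted p = 9.09e-05). Without glucose culture A 1 was higher and 2 lower, with all reads as library size 1 and 3, and with the replicate block 3 and 3. The α-xylosidase gene axlA was the 1 that fell, 4.05-fold, a call lost without 24 h culture A (adjusted p = 0.107). None of 3 inulin and sucrose genes was called, the best covered being sucB with 20 and 11 reads on glucose and 6 and 1 at 24 h. Of 5 regulator genes 2 were higher and 1 lower, the lower one being amyR. The repressor gene creA was at 9.56 and 12.97 on glucose and 16.3 and 16.9 at 24 h (adjusted p = 0.633), and the pH regulator gene pacC rose 4.95-fold (log2 fold change 2.10, SE 0.45, adjusted p = 0.00113).

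Genes of conidiophore and spore formation gave unlike counts in different lists. Of 9 markers of conidiophores and conidia chosen by symbol, 7 were matched to gene models, fwnA and olvA being unmatched. The 6 tested were all higher, with their median at 3.53. The study had already reported brlA, brnA and ctcB as expressed or raised at 24 h of starvation in these libraries. The direction of this list is therefore not independent evidence. Their summed level was 30.02 and 29.7 in the glucose cultures and 366 and 289 at 24 h, and none was without reads in any of the 4 libraries. brlA encodes the regulator that switches on conidiophore development and went from 1 and 3 reads to 35 and 9, levels of 1.23 and 3.09 against 85.5 and 34.2 (27.7-fold, log2 fold change 4.46, SE 0.87, adjusted p = 6.19e-04). An01g03750, similar to abaA of Aspergillus nidulans, which acts after brlA in that species, rose from 3.99 and 4.46 to 29.05 and 24.7 (6.35-fold, log2 fold change 2.43, SE 0.78, adjusted p = 0.0194), a call that was lost when any 1 of the 4 libraries was left out.

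The spore-wall oxidase genes brnA and mcoB, both of the multicopper oxidase family, rose as well. brnA had 1 and 1 reads on glucose and 27 and 11 at 24 h, 50.3-fold higher by pooled reads (95% interval 13.01 to 431). mcoB went from 7.03 and 4.42 to 59.3 and 122, 15.8-fold (log2 fold change 3.74, SE 0.57, adjusted p = 4.54e-05). Of the 2 markers left, ctcB, for a group B chitinase, rose 7.18-fold (log2 fold change 2.64, SE 0.65, adjusted p = 0.00342) and urhgB 11.8-fold (log2 fold change 3.32, SE 0.82, adjusted p = 0.00356). urhgB encodes a distant relative of rhamnogalacturonyl hydrolases and is in the list because the study's tables file it under sporulation. An01g08900, similar to the late spore regulator wetA, was too low to test, with 3 and 8 reads on glucose and 4 and 1 at 24 h. These calls leaned on the deeper starved library, as 1 of the 5 markers then tested was called without 24 h culture A, and brlA then had an adjusted p of 0.0564. Of the longer list of 16 genes with conidium or conidiophore in the description, 3 were higher and 1 lower, close to the background, with a median of 0.37, and 1 was higher without 24 h culture A. These markers moved together with the wall hydrolases, and their part in that result was not tested. Of 7 genes annotated to asexual reproduction 5 rose, with a median of 2.47, among them An02g07930, 46.8-fold (log2 fold change 5.36, SE 0.52, adjusted p = 3.59e-07), and An04g05880, 33.2-fold (log2 fold change 4.84, SE 0.49, adjusted p = 4.72e-07). The hydrophobin gene An01g10940 was too low to test, with 1 and 0 reads on glucose and 4 and 1 at 24 h.

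Few genes of the growth machinery were called. Of 26 tested genes of ribosomes and translation none was higher and 2 were lower, with the median log2 fold change at −0.73. Without 24 h culture A 4 of 29 were lower. With all libraries the lower ones were An02g03110, for a structural protein of the mitochondrial ribosome, 4.06-fold (log2 fold change −2.19, SE 0.51, adjusted p = 0.00231), and An01g00130, an orthologue of glutaminyl-tRNA synthase, with 34 and 39 reads on glucose against 0 and 2 at 24 h, 13.8-fold lower by pooled reads (95% interval 3.68 to 116). Of 19 genes of polymerases, DNA replication and mitosis none was higher and 2 were lower, with a median of −0.34. An02g01200, for an orthologue of spindle motor proteins, fell 4.31-fold (log2 fold change −2.38, SE 0.49, adjusted p = 9.11e-04), and An01g03950, for a DNA polymerase processivity factor, 3.36-fold (log2 fold change −2.03, SE 0.55, adjusted p = 0.00673), though the latter call was lost without 24 h culture A (adjusted p = 0.11).

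Secretory pathway genes gave 2 higher and 1 lower of 24 and a median of −0.42. The higher ones were An01g06080 and An01g13900, the latter predicted to bind heat shock and unfolded proteins, and both calls were lost without glucose culture B or without either 24 h culture. Without 24 h culture A 3 were lower. The lower one was An01g00130, which is on the translation list as well. The word lists cover the part of the genome for which descriptions were held, 1525 genes numbered An01 or at the start of An02, and not the whole of each pathway.

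**Figure D4:**
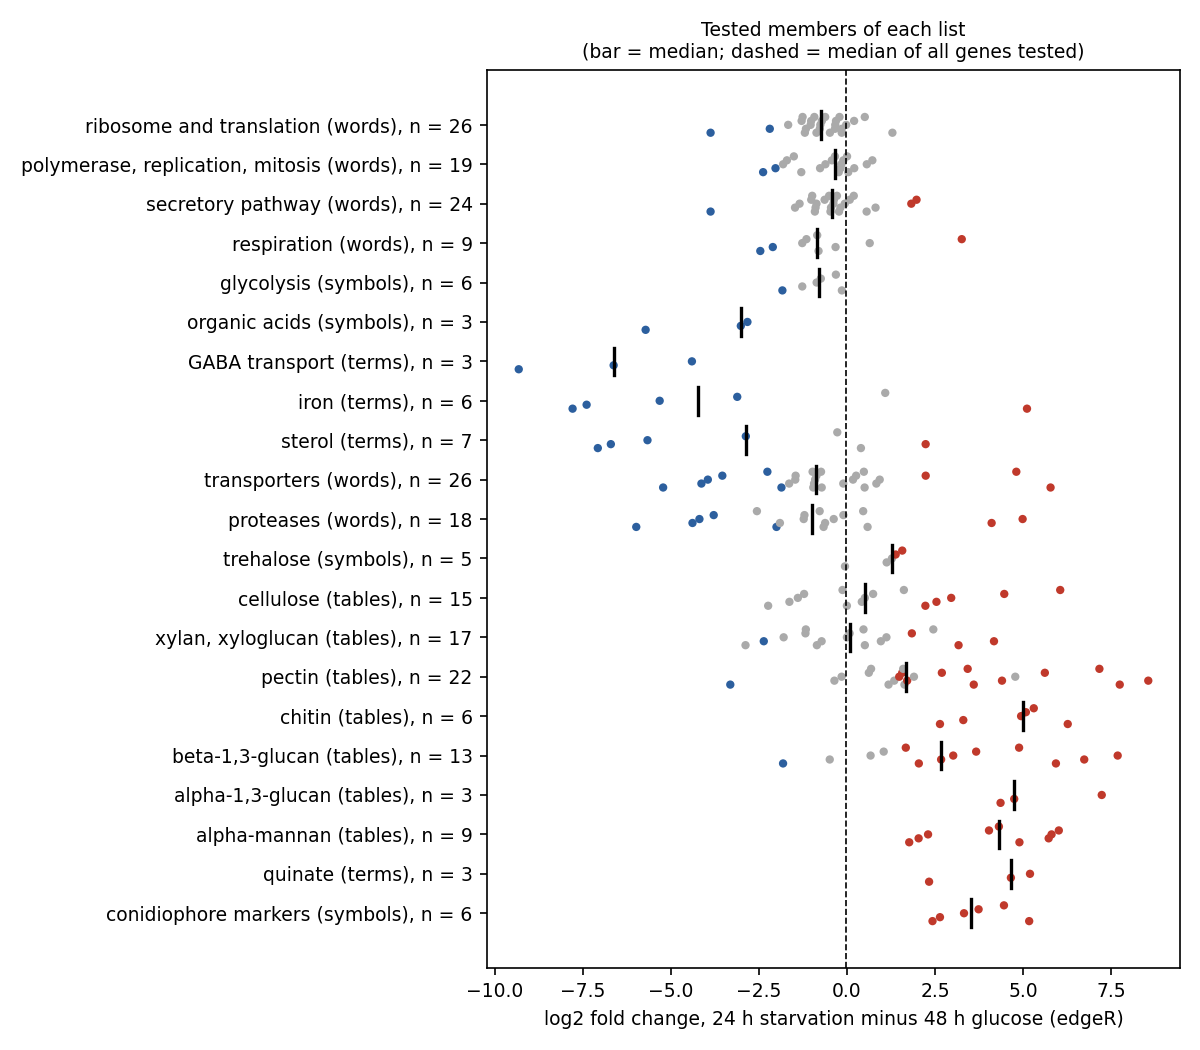
Log2 fold change of every tested member of 21 gene lists (24 h starvation minus 48 h glucose, edgeR), with red for members called higher, blue for members called lower and grey for those not called. Black bars mark list medians and the dashed line the median of all tested genes at −0.02, and the medians of the wall, quinate and conidiophore lists lie to its right while the γ-aminobutyric acid transport, iron, sterol and organic acid lists have theirs to its left.

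Transporters went in both directions. Of 26 tested genes with transporter or permease in the description 3 were higher and 6 lower, with the median log2 fold change at −0.88. An02g03540, an orthologue of glucose and mannose transporters, fell from 137 and 181 to 11.1 and 12.9, 13.3-fold (log2 fold change −3.95, SE 0.46, adjusted p = 1.97e-06). An01g09730, predicted to carry amino acids, fell from 169 and 67.9 to 9.34 and 14.5, 9.90-fold (log2 fold change −3.54, SE 0.55, adjusted p = 5.86e-05). Among those that rose, An01g09300, a predicted potassium transporter gene, went from 4.25 and 0 to 204 and 57.8, 61.6-fold (log2 fold change 5.78, SE 0.81, adjusted p = 1.66e-05). An01g00850, a putative xylose permease gene repressed by glucose, rose from 50.1 and 16.8 to 153 and 1998, 32.1-fold (log2 fold change 4.81, SE 0.82, adjusted p = 1.46e-04), with most of the level in culture B.

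Trehalose is a storage disaccharide that protects spores and stressed cells, and of 5 genes of its metabolism tpsA and tppC were called higher, with the median log2 fold change at 1.28. tpsA went from 101 and 65.5 to 243 and 259.8, 3.01-fold (log2 fold change 1.38, SE 0.38, adjusted p = 0.00784), and tppC from 142 and 204 to 614 and 584, 3.46-fold (log2 fold change 1.57, SE 0.42, adjusted p = 0.00631). Both lie at the edge of the 3-fold limit and lost their calls with deposited RPKM, with all reads as library size, or with the limit set on edgeR's fold change. The call of tpsA was lost as well without glucose culture B (adjusted p = 0.121) or without 24 h culture B, and that of tppC without glucose culture A (adjusted p = 0.0897). Of 7 genes annotated to fatty acid activation or β-oxidation 5 were higher, with a median of 1.68. An14g00990 rose from 15.3 and 21.8 to 147 and 166, 8.44-fold (log2 fold change 2.85, SE 0.48, adjusted p = 1.15e-04), and An09g06740 rose 7.40-fold (log2 fold change 2.65, SE 0.48, adjusted p = 2.39e-04). For this list 2 of 7 were higher with all reads as library size, with deposited RPKM, or without 24 h culture A. A putative catalase-peroxidase gene, An01g01830, rose from 31.8 and 42.1 to 1629 and 1327, 40.03-fold (log2 fold change 5.10, SE 0.50, adjusted p = 3.59e-07).

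Several of the largest changes came in runs of neighbouring genes. In the locus order of the RefSeq assembly ASM285v2, which is of another strain and was used for names and order alone, 109 of the higher genes lay in 29 runs of at least 3 adjacent called genes and 37 of the lower genes in 10 such runs. No test of this number was made. The run An11g07030 to An11g07060 held the largest rise of all, and its other members were almost unread on glucose. An11g07030 had 1 and 0 reads on glucose and 141 and 112 at 24 h, An11g07050 none and 130 and 70, and An11g07060 none and 38 and 7. The 6 genes An11g02150 to An11g02200 include both higher phenylalanine genes, An11g02170 and An11g02180, next to An11g02200. An11g02150 had 5 and 7 reads on glucose and 77 and 53 at 24 h, while An11g02160 and An11g02190 were unread on glucose and had 9 and 13 and 18 and 6 reads at 24 h. The quinate genes lay in a run of 5, An08g03850 to An08g03890.

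A run of 6, An11g07300 to An11g07350, contained a gene annotated as a polyketide synthase, an enzyme class that builds many fungal secondary metabolites. That gene, An11g07310, had no read on glucose, 126 and 38 at 24 h and a mean level of 465 at 6 h against 101 at 24 h. It was at least 145-fold higher at 24 h than on glucose. An11g07320, also unread on glucose, had 86 and 22 reads at 24 h, and An11g07340, unread on glucose, had 45 and 36. The study's list of polyketide synthases holds genes changed at 6 h and not those of the whole genome. Of its 5 tested genes 4 were higher, with a median of 2.34. The fifth, An13g02430, had 5 and 4 reads on glucose and none at 24 h and did not pass (log2 fold change −4.81, adjusted p = 0.0695). With all reads as library size 3 of 6 were higher and 2 lower, and with no low-count filter 4 and 1. An03g05140 went from 1.72 and 0.360 to 65.2 and 44.5, 52.8-fold (log2 fold change 5.53, SE 0.64, adjusted p = 2.23e-06), and An12g02730 rose 5.91-fold (log2 fold change 2.34, SE 0.40, adjusted p = 1.56e-04). Of 8 genes with secondary metabolism words in the description 2 were deep enough to test and 1, the nonribosomal peptide synthetase-like gene An02g00840, was higher, 6.24-fold (log2 fold change 2.44, SE 0.49, adjusted p = 6.35e-04). Without glucose culture A 2 of 3 were higher.

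Of 6 genes annotated to drug transport across membranes 2 were higher and 2 lower, with a median of −1.24. An09g00550 had no read on glucose and 27 and 11 at 24 h and An09g01700 went from 2 and 0 to 123 and 102, whereas An03g03620 fell from 260 and 212 to 3 and 1 and An11g07820 from 41 and 47 to 1 and 0. The groups did not overlap in any of these 4 genes. Of 7 genes annotated to acetate metabolism 2 were higher and none lower, with a median of 0.94, while 4 were higher without 24 h culture B, and 1 was lower without 24 h culture A. An11g02550 rose 12.98-fold (log2 fold change 3.49, SE 0.48, adjusted p = 1.32e-05) and aldA, for aldehyde dehydrogenase, 4.58-fold (log2 fold change 1.98, SE 0.45, adjusted p = 0.00177), the latter losing its call with deposited RPKM or with all reads as library size. None of 4 tannin acyl hydrolase genes was deep enough to test.

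Runs of lower genes included abundant transcripts of glucose-grown mycelium. In An03g00650 to An03g00690, which begins with a gene annotated to nonribosomal peptide synthesis, An03g00660 fell from 2099 and 5445 to 7.38 and 7.66, 502-fold (log2 fold change −9.16, SE 0.70, adjusted p = 4.01e-08), and An03g00690 from 3352 and 7270.4 to 111 and 144, 41.7-fold (log2 fold change −5.62, SE 0.60, adjusted p = 7.88e-07). The other members, An03g00650, An03g00670 and An03g00680, had 0 and 1 reads each at 24 h. In An03g03520 to An03g03560 a gene annotated to nonribosomal peptide synthesis, An03g03520, lies near the iron chelate transport gene An03g03560. An03g03520 fell from 39.6 and 51.4 to 3.62 and 4.03, 11.9-fold (log2 fold change −3.79, SE 0.49, adjusted p = 6.16e-06), and An03g03530, between them, from 491 and 577 reads to 4 and 0. In An12g03750 to An12g03780 the abundant gene An12g03760 fell from 4047 and 7011 to 29.2 and 38.98, 162-fold (log2 fold change −7.57, SE 0.64, adjusted p = 8.70e-08).

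**Figure D5:**
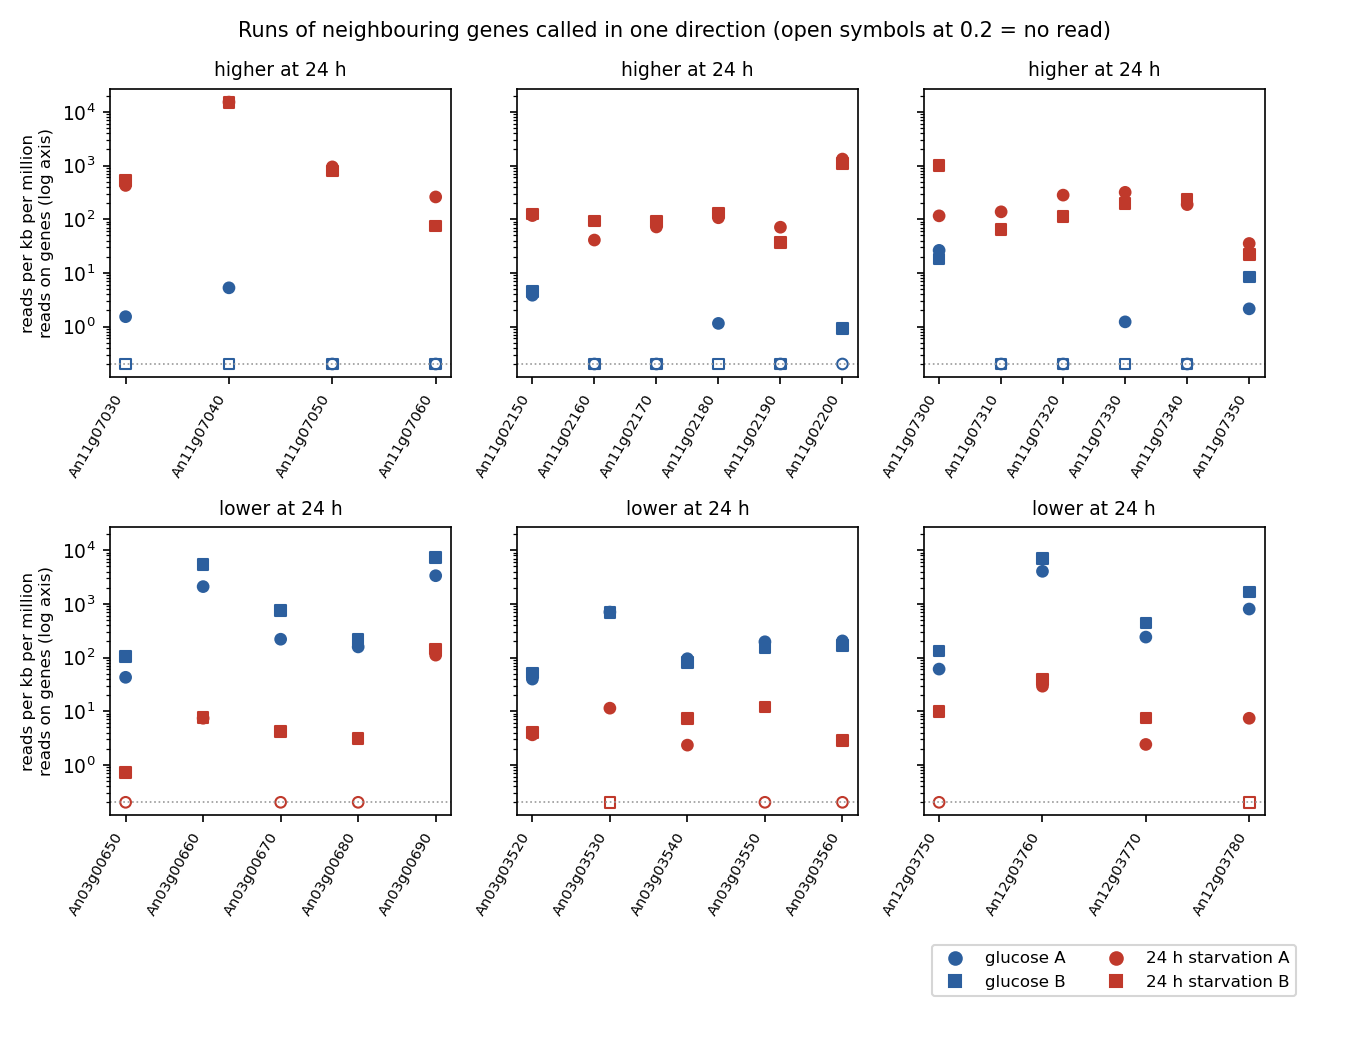
Level of each gene in 6 runs of neighbouring called genes, in reads per kilobase per 1000000 reads on genes on a log axis, with genes in locus order on the x axis. Blue symbols are glucose cultures and red symbols 24 h starvation cultures (circles A, squares B), open symbols at 0.2 mark no read, and the 3 upper runs are higher and the 3 lower runs lower at 24 h in every gene.

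Among the 10 most abundant transcripts per length, gw1.1194.1.1, An16g04600, An13g00630 and Cscaffold2000728 stood in the top 10 of both groups and were not called. The short gene model gw1.1194.1.1 was highest in all 4 libraries, at 198507 and 207919 on glucose and 348781 and 240461 at 24 h (adjusted p = 0.723). Among genes new to the top 10 at 24 h, An08g09880 rose from 51.3 and 42.99 to 11694 and 8205, 211-fold (log2 fold change 7.49, SE 0.54, adjusted p = 3.62e-08). An13g02730 rose from 1392 and 1264 to 14528 and 16119, 11.5-fold (log2 fold change 3.32, SE 0.43, adjusted p = 7.20e-06). Among the top 10 on glucose, the sorbitol dehydrogenase gene An01g03480 went from 6761 and 8071 to 3483 and 4017, a 1.98-fold difference below the 3-fold limit (adjusted p = 0.0412), and Cscaffold10000173 fell 103-fold (log2 fold change −6.89, SE 0.64, adjusted p = 2.25e-07). The 3 genes the study used as references for quantitative PCR were not called. actA, for actin, was at 282 and 305 on glucose and 257 and 308 at 24 h (adjusted p = 0.645), sarA at 26.5 and 36.3 and 57.4 and 22.3 (adjusted p = 0.836), and An08g05910 at 106 and 95.5 and 87.3 and 59.995 (adjusted p = 0.215). Levels of sarA in the groups overlapped, as did those of actA.

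Levels of chiB, An07g07700 and brlA were also compared with those at 6 h, which asks whether the late state differs from that at 6 h. chiB had levels of 31.01 and 27.9 in the 6 h cultures and 2634 and 3599 at 24 h, a log2 difference of 6.40 (adjusted p = 5.62e-07), and its 6 h levels were close to the 32.7 and 36.5 on glucose. An07g07700 was at 489 and 438 at 6 h and 1045 and 911 at 24 h (log2 difference 0.77, adjusted p = 0.272). Its 6 h levels were already above those on glucose. brlA was at 13.3 and 2.18 at 6 h and 85.5 and 34.2 at 24 h (log2 difference 2.56, adjusted p = 0.0534) and fell on either side of the threshold with the processing.

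In some called genes the starved cultures differed widely. At 24 h An05g01730 gave 20 and 527 reads in cultures A and B and An09g01690 31 and 188. An14g02980 gave 1192 and 104, and the putative α-mannosidase gene An08g08370 36 and 141. In each of these genes both starved cultures still exceeded both glucose cultures. Near-identical gene copies share reads that do not map uniquely and so were not counted, and genes of such families may be understated in every library.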

How the data were processed

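rRNA was removed from 10 µg of total RNA of duplicate A. niger N402 shake-flask cultures, and a SOLiD 5500xl instrument was used for sequencing. Each deposited count is the number of uniquely aligned forward reads per gene model of the Aspni5 annotation, which the authors mapped with LifeScope and counted with HTSeq. Whether counting used strand is not given in the sources used here. The authors computed the deposited RPKM from these counts, dividing by all reads of a library including unassigned ones, since 100% of 73160 values then implied a length that was whole to 0.01 base, against 1.98% with reads on genes. The lengths so recovered were used for the levels given here.

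Each file held 15436 rows, of which 15431 were genes. The remaining 5 HTSeq summary rows were removed, leaving 1.41 to 2.99% of all reads in the 4 libraries compared. Of the genes 4156 were unread in those libraries, 14114 carried a CBS identifier and 14069 of these were in the RefSeq table. Reads on genes numbered 205778 to 758523 per library.

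Counts of all 8 libraries were fitted in edgeR 4.0.16 (R 4.3.3) with condition as the only term, filterByExpr (6357 genes tested), TMM factors and edgeR's quasi-likelihood test, p-values being adjusted over all genes tested by the Benjamini-Hochberg method. The common dispersion was 0.0889 with 4 residual degrees of freedom. Calls needed an adjusted p below 0.05 and group means at least 3-fold apart, or the p alone where a group had no read. Where a group had no read, a bound was set with 3 counts over the group, and where it had 1 to 3 reads the ratio of pooled reads was given with its exact 95% interval.

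On simulated counts the test recovered 62% of 4-fold rises, 100% of 16-fold rises, 50% of 4-fold falls and 90% of 16-fold falls. The simulation fitted 5401 genes with 50 genes per class of change, and 0.173% of 5206 unchanged genes were called. In the data 17.3% of tested genes were called higher and 12.1% lower, a far larger share than was changed in the simulation. Every simulated gene had the same common dispersion, and changed genes were drawn only from those above a minimum of expected reads. The simulation thus left out differences in spread between genes and changes in genes expected to have few reads. The rates therefore describe the simulation and are not error rates of the calls reported here, least of all for genes with few reads.

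The libraries compared and the gene lists were chosen with earlier results of these data known. Lists came from the study's tables by polymer, from gene symbols, from words in the 1525 gene descriptions held, and from the study's annotation terms of genes changed at 6 h, the last picked after values were seen. Named genes were all members of lists of at most 12 genes, up to 4 called members per direction of longer lists, the 15 largest changes per direction with a mean of at least 50 reads, the 10 highest levels per group and genes the paper names for this state, with 1 gene left out of the text. Alternatives were DESeq2 1.42.0, RLE factors, no TMM, all reads as library size, no low-count filter, the deposited RPKM ratio, the fold limit on edgeR's estimate, the p alone, a fit of the 4 libraries, the replicate letter as a block, thinning to 205778 reads and each library left out in turn. Leaving out each 6 h starvation culture was added after seeing the data. No sequences are printed, since no genome or sequence table was used here.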

Additional observations from a re-analysis of the deposited data

Results flagged for a closer look

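The chitinase gene chiB differed between the 2 starvation times, with both 24 h cultures far above both 6 h cultures. The log2 difference of 24 h minus 6 h was 6.40 (adjusted p = 5.62e-07 by edgeR, standard error 0.49), from levels of 31.0 and 27.9 at 6 h to 2634 and 3599 at 24 h, and it was higher in 2 of 2 cultures.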

How the results depend on the processing

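Per group 2 cultures and 205778 to 320375 reads on genes at 24 h limit the precision, most of all for genes with few reads. With 1 of the 4 libraries left out, 818 to 969 genes were higher and 651 to 762 lower, each count lowest without 24 h culture A. With all reads as library size 709 genes were higher and 930 lower, with the deposited RPKM ratio 813 and 1107, with DESeq2 999 and 659, with no filter 1218 and 941 of 11978 tested, with RLE factors 1108 and 763, with no TMM 1158 and 718, with the limit on edgeR's fold change 1003 and 859, with the p alone 1219 and 1111, in a fit of the 4 libraries 1036 and 766, and thinned to 205778 reads 775 and 545 of 4352 tested. Under these settings 0 called genes were called in the opposite direction. Of 159 called named genes, 120 kept their call and direction under each of these settings in which they were tested, 113 of them being tested in all. An02g01000 turned to −2.07 without 24 h culture B and was between that and 5.99 with 1 library left out.

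The labels do not say that the letters A and B pair cultures. Deviations of same-lettered cultures from their group means correlated at −0.0426 between glucose and 24 h and at 0.195 between 24 h and 6 h. With the replicate block 1112 genes were higher and 773 lower.

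For 24 h against 6 h, leaving out 1 library gave log2 differences of 6.13 to 6.59 for chiB, 0.62 to 0.86 for An07g07700 and 1.71 to 4.41 for brlA. brlA passed the threshold with RLE factors (2.63), no TMM (2.87), all reads as library size (3.09), no low-count filter (2.51), the replicate block (2.59) and without 6 h starvation culture A (4.41), with adjusted p of 0.0115 to 0.0477, and the cause was not tested. It could not be fitted after thinning.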
